A study of Mus musculus with 22 samples.

Results

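The H3K27me3 peaks described here lie on exons and untranslated regions (UTRs) of genes in the mouse retina at embryonic day 18.5. They are the rows of the deposited peak table whose annotation begins with Exon, 5' UTR or 3' UTR, with the X chromosome left out. There are 1024 of them among 19034 peaks, of which 666 are exon, 54 are 5' UTR and 304 are 3' UTR peaks. A further 26 such peaks on the X chromosome were left out.

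The retinas came from C57BL/6 embryos of 2 genotype groups with 5 animals each. The 5 conditional knockout (cKO) animals were Jarid2 fl/fl with Rx-cre, a Cre driven in the eye field and in retinal progenitors. In the control group, control replicate 1 was Jarid2 fl/+ with Rx-cre, control replicates 2, 4 and 5 were Jarid2 fl/+ and control replicate 3 was Jarid2 fl/fl, with no Cre named for these 4. The protocol text differs from these labels in giving the controls as Jarid2 fl/fl and the driver as Rax-CreERT2, and the label genotypes are used here. It gives tamoxifen to the pregnant female at E10.5, 75 µg per g, so the litters of both groups were exposed to it. H3K27me3 was measured by CUT&RUN, in which an antibody guides a nuclease to cut out the marked chromatin for sequencing. Both retinas of an animal were pooled, so deleted and undeleted cells, and all retinal cell types, were measured together. Fewer cells with the mark and less of the mark per cell cannot be told apart in such samples. Batch 1 was a single litter with cKO replicates 1 and 2 and control replicates 1 and 2, and held both sexes. Batch 2 held cKO replicates 3 to 5 and control replicates 3 to 5, all male littermates, each with 2 technical duplicates that were summed. An animal gave 1688368 to 2864080 reads in peaks, and the 1024 peaks took 3.28% to 3.58% of these reads in cKO animals and 3.29% to 3.77% in controls. H3K27me3 does not measure the deletion, so these values do not check the genotype labels, and no tested peak of the set was assigned to Jarid2.

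H3K27me3, the trimethylation of lysine 27 of histone H3, is laid down by Polycomb repressive complex 2 (PRC2) and marks genes that are kept silent during development. Jarid2 is an accessory subunit that helps to bring PRC2 to chromatin. The mark is best known from broad domains over the CpG-rich promoters of developmental regulators, and a peak within an exon or a UTR is a place in the body or at the end of a gene where the mark also stands above its surroundings. In the retina, progenitors change the genes they silence as they pass from making early-born to late-born neurons.

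Their median width was 2821 bp, so that a peak named for an exon can reach well beyond it, and the nearest promoter peak lay a median of 22.2 kb away. The table also assigns each peak to a gene, with the distance to its start, and 257 of the 666 exon peaks were assigned to a gene other than the one that owns the exon. The gene of the exon is therefore named below where the table pairs it with a symbol. For other peaks, including all UTR peaks, the gene named is the assigned gene where the peak overlaps it in RefSeq, or else the coding gene overlapped where there is only 1, or else the assigned gene. The 1024 peaks fell on 884 genes, and 226 of them overlapped no coding gene of RefSeq. Exon peaks lay at exon 5 of 10 by the medians, with 3 on a first exon and 146 on a last exon. Peaks annotated as promoter are outside the set, so the low number on first exons follows at least in part from the choice of peaks.

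The set leaves out all peaks annotated as promoter, so few of its peaks are left to hold an annotated start. Of the 32851 RefSeq windows of 300 bases around a start (250 bases before it and 50 after, build GRCm38.p6), 28 lay wholly in a peak of the set, spread over 20 peaks. The 30 bases before the start are printed below for 3 windows that lie in a peak lower in cKO. These 3 need not be all such windows. The bases are also printed for a start of Foxp1, Alk and Dnah11. Each of these starts lies inside a promoter peak that did not pass the test, while the exon peak of the gene fell. The Foxp1 start lies within the gene, in a peak 257 kb from the gene start. Of the 4 promoter peaks tested in Foxp1, 3 were lower. Capitals mark CG, the CpG dinucleotide, which reads the same on both strands and occurs at least once in 94.572% of all windows.
Arhgap15, chr2:43787325-43787354, plus strand: ctgaaaatagctagatacCGaccttgaact
Gm39804, chr2:43788116-43788145, minus strand: agatttggagaactatttatgagcCGttat
Gm52913, chr6:92786646-92786675, plus strand: gcttcaaccaggtgaagtgagtctctcctg
Foxp1, chr6:99266516-99266545, minus strand: cagtggctttgttgtgtttagcccacatac
Alk, chr17:72604308-72604337, minus strand: CGggagcctcctctcCGcaaCGcagagctc
Dnah11, chr12:118199044-118199073, minus strand: gaaagcagagaaatccagttgatttccCGg
The full windows of the first 3 hold 8, 1 and 3 CpGs. Those of Foxp1, Alk and Dnah11 hold 5, 28 and 7, where the median over all windows is 7. The Alk window held the most, and 14.18% of all windows hold as many. The Arhgap15 and Gm39804 windows lie in the same exon peak of Arhgap15, and the Gm52913 window lies in the exon peak of Adamts9.

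The comparison of cKO with control asked where the mark differs with loss of Jarid2. All cKO animals carried Cre, while control replicate 1 was the only control with Cre named. An effect of Cre and an effect of losing Jarid2 therefore cannot be told apart in this comparison. At exons the mark was lower in cKO retinas along the bodies of long genes such as the transcription factor Foxp1, the secreted glycoprotein Reln and the receptor phosphatase Ptprk, while 3' UTR peaks were seldom called lower. Of the 1024 peaks, 907 had enough reads to be tested (587 exon, 52 5' UTR and 268 3' UTR), and 80 were lower in cKO and 18 higher (edgeR, quasi-likelihood test with a batch term, Benjamini-Hochberg adjusted p under 0.05 over all tested peaks). That is 8.82% lower and 1.98% higher, against 7.38% lower and 1.46% higher among all 16307 tested peaks, so as a whole the set stood near the background. The decreases had a median of 1.45-fold (1.16-fold to 3.19-fold), and the increases a median of 1.41-fold (1.19-fold to 1.90-fold). All 80 lower peaks were below the control mean of their batch in 5 of 5 cKO animals, and 17 of the 18 higher peaks were above it in 5 of 5. The peaks were called on these same animals, so these counts describe the calls and are no further test. Over all 907 tested peaks the median log2 fold change was 0.03, and 399 were lower and 508 higher by sign alone. The scaling to reads in peaks sets the typical peak near 0, so all changes given here are relative to other peaks. A loss shared by all peaks would not show.

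The classes differed. Exon peaks had 70 lower and 9 higher of 587 (11.9% and 1.53%), 5' UTR peaks 4 lower and 1 higher of 52 (7.69% and 1.92%), and 3' UTR peaks 6 lower and 8 higher of 268 (2.24% and 2.99%). Among the other autosomal peaks, intron peaks had 293 lower and 13 higher of 1882 (15.6% and 0.691%), promoter peaks 357 lower and 158 higher of 8376 (4.26% and 1.89%), and distal intergenic peaks 454 lower and 49 higher of 4737 (9.58% and 1.03%). In these shares exon peaks stand between intron and intergenic peaks, and 3' UTR peaks stand nearest to promoter peaks. The classes also differ in size: the median width was 2571 bp for exon, 3231 bp for 3' UTR, 1881 bp for intron and 3961 bp for promoter peaks, and whether the class itself differs beyond size was not tested.

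**Figure D1:**
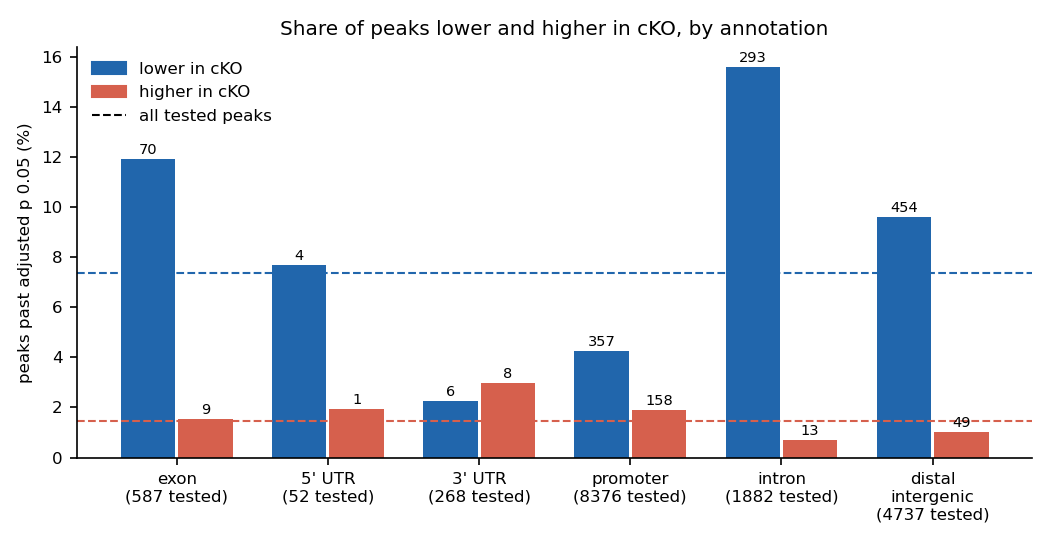
Share of tested peaks past an adjusted p of 0.05 (y axis, percent) by annotation class (x axis, number tested below each), with blue bars for peaks lower and red bars for peaks higher in cKO, the number of peaks above each bar and dashed lines for all 16307 tested peaks. Exon peaks were lower more often (11.9%) than the 7.38% of all peaks and 3' UTR peaks less often (2.24%), while 3' UTR peaks had 8 higher and 6 lower peaks.

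The direction of calls depends in part on the scaling between animals. With TMM factors 81.6% of the 98 called peaks of the set were lower. With the total count the split was 72 lower and 27 higher (72.7% lower), and with loess offsets, added after the data were seen, it was 71 and 27 (72.4% lower). Among all peaks the lower share of calls was 83.5% with TMM factors, 68.4% with the total count and 66.1% with loess offsets. No scaling moved the median log2 fold change of all peaks by over 0.1. With DESeq2 66 peaks of the set were lower and 3 higher.

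Distance from promoter peaks and width both went with the decrease at exons. Of the exon peaks within 5 kb of a promoter peak, 5 of 99 were lower (5.05%), of those over 5 to 50 kb away 21 of 280 (7.50%), and of those over 50 kb away 44 of 208 (21.2%). The shares for intron peaks ran in the same order, at 8.24%, 10.2% and 21.9%. For 3' UTR peaks they were 3 of 52, 2 of 153 and 1 of 63. By width, 6 of 169 exon peaks up to 2 kb wide were lower, 17 of 252 from 2 to 5 kb, and 47 of 166 over 5 kb (28.3%), and wider peaks hold more reads, which makes a change easier to call. The shares also rose with width among intron peaks (6.16%, 13.5% and 43.7%) and among all autosomal peaks outside the set (3.05%, 5.92% and 12.5%). Distance and width each held within the other: among exon peaks over 5 kb wide, 30 of 61 were lower (49.2%) when over 50 kb from a promoter peak and 17 of 105 (16.2%) when nearer, and among narrower ones 14 of 147 (9.52%) and 9 of 274 (3.28%). Intron peaks ran in the same order, with 55.4% and 28.4% lower among those over 5 kb wide and 13.7% and 6.76% among narrower ones. The 3' UTR peaks over 5 kb wide held a median of 51.0 CPM near promoter peaks, close to the 53.3 CPM of exon peaks of that size and place, with 3 of 65 lower against 17 of 105. The median gap to a promoter peak was 106 kb for lower, 12.0 kb for higher and 20.9 kb for uncalled peaks of the set.

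**Figure D2:**
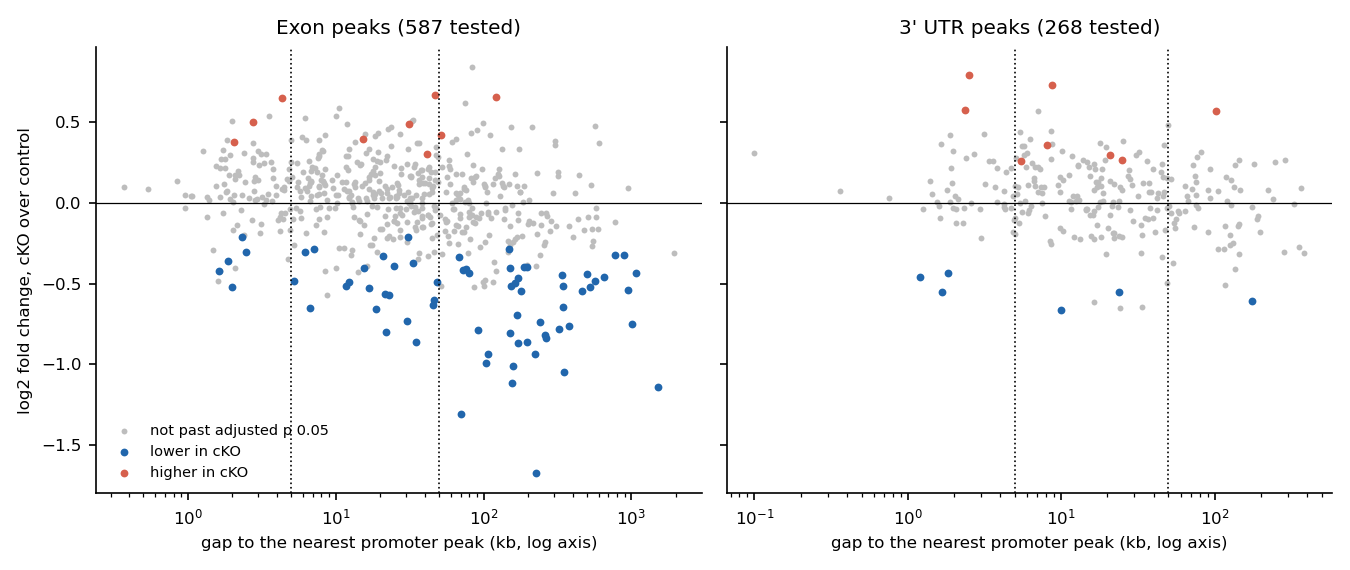
Log2 fold change of cKO over control (y axis) against the gap to the nearest promoter peak (x axis, kb, log axis, gaps under 0.1 kb drawn at 0.1) for the 587 tested exon peaks (left) and 268 tested 3' UTR peaks (right), with dotted lines at 5 and 50 kb. Lower peaks (blue) gather at the right of the exon panel, where 44 of 208 peaks beyond 50 kb were lower, and are few in the 3' UTR panel.

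The length of the gene went with it too. Among exon peaks in a single coding gene of over 200 kb, 29 of 89 were lower (32.6%) and 0 were higher. In genes of over 50 to 200 kb 12 of 176 were lower (6.82%) and 6 higher, and in shorter genes 0 of 139 were lower and 3 higher. At an unadjusted p under 0.05, 2 exon peaks of these shorter genes were lower and 15 higher, with a median log2 fold change of 0.11, and 33 and 2 in genes of over 200 kb, with a median of -0.16. Of the 3' UTR peaks, 3 of 24 were lower in genes over 200 kb (12.5%), 1 of 84 in genes of over 50 to 200 kb and 2 of 137 in shorter genes. At an unadjusted p under 0.05, 7 were lower and 1 higher in genes over 200 kb, with a median log2 fold change of -0.12, and 8 were lower and 16 higher in genes up to 50 kb, with a median of 0.07. The difference between exon and 3' UTR peaks of long genes was not tested. Among exon peaks of coding genes, leaving out last exons, 5 of 74 were lower at exons 2 and 3 (6.76%). The counts were 13 of 162 at exons 4 to 10 (8.02%) and 19 of 108 beyond exon 10 (17.6%). At last exons of coding genes 4 of 23 were lower (17.4%). Long genes, high exon numbers and large gaps to promoter peaks occur together in this set, and their parts were not told apart.

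The lower exon peaks with the smallest p had between 1.40-fold and 3.19-fold less of the mark in cKO. Values are CPM, read counts scaled to a common library size with TMM factors, given for replicates 1 to 5 of each group, so that the first 2 values of each group are batch 1. The Foxp1 exon peak (chr6:98943380-98953270, mm10, exon 12 of 18) held 10.1, 14.5, 64.7, 67.7 and 64.4 CPM in cKO animals, against 47.3, 79.3, 144, 133 and 125 CPM in controls. Only control replicate 1, the batch 1 heterozygote with Cre, lay within the cKO range, below the cKO animals of batch 2. Within each batch every cKO animal lay below every control. The peak fell by 1.30 ± 0.15 on the log2 scale (SE, adjusted p = 1.4e-05 by edgeR), with -2.34 in batch 1 and -1.05 in batch 2. The test of that difference between batches gave an unadjusted p of 0.00014 and an adjusted p of 0.238. Foxp1 encodes a forkhead transcription factor that acts in early retinal progenitors.

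The smallest p of all belonged to an exon peak of Gm20619, a gene with a predicted-gene symbol, assigned to Gm8649 (chr6:6310250-6322140). It held 56.0, 61.6, 90.0, 99.8 and 97.8 CPM in cKO animals, against 89.6, 122, 173, 169 and 162 CPM in controls, which is -0.82 ± 0.08 on the log2 scale (SE, adjusted p = 4.1e-06 by edgeR). The change was alike in batch 1 (-0.84) and batch 2 (-0.82).

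Ptprk encodes a receptor-type tyrosine phosphatase of cell contacts. Its peak at exon 8 of 32 (chr10:28457210-28469590) held 76.2, 88.7, 119, 107 and 108 CPM in cKO animals, against 121.5, 172, 186, 185.5 and 184 CPM in controls. All cKO values lay below all control values (log2 fold change -0.76 ± 0.08 SE, edgeR adjusted p = 6.8e-06). The promoter peak of Ptprk fell as well, by 0.72 on the log2 scale.

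The largest fold change of the set was at Impg1, which encodes a proteoglycan of the matrix around photoreceptors. The peak (chr9:80392590-80394760) is small, with 3.73, 4.01, 3.62, 4.46 and 4.23 CPM in cKO animals, against 5.48, 10.7, 15.2, 16.9 and 15.4 CPM in controls. The groups did not overlap, and the change was -1.67 ± 0.21 on the log2 scale (SE, adjusted p = 2.7e-05 by edgeR). DESeq2 gave this peak no adjusted p.

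The other peaks among the 10 lower ones with the smallest p lay in L3mbtl3 (-0.74 ± 0.09), which encodes a chromatin reader of the malignant brain tumour family, and in Alk (-0.51 ± 0.07), a receptor tyrosine kinase of the nervous system. Gm42707 (-0.86 ± 0.11) and D130079A08Rik (-0.81 ± 0.11), with predicted or clone symbols, and 2 peaks assigned to Gm22402 (-0.55 ± 0.07) and Gm43555 (-0.49 ± 0.07) complete them (log2 fold change ± SE). All 10 remained past the threshold whichever animal was left out. In batch 1 alone, with 2 animals per group, none of the 10 passed, with adjusted p from 0.0946 at the Foxp1 peak to 0.407 at the Impg1 peak (edgeR). Of the 80 lower peaks, 26 lay on genes with such Gm or Rik symbols and 54 on others.

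**Figure D3:**
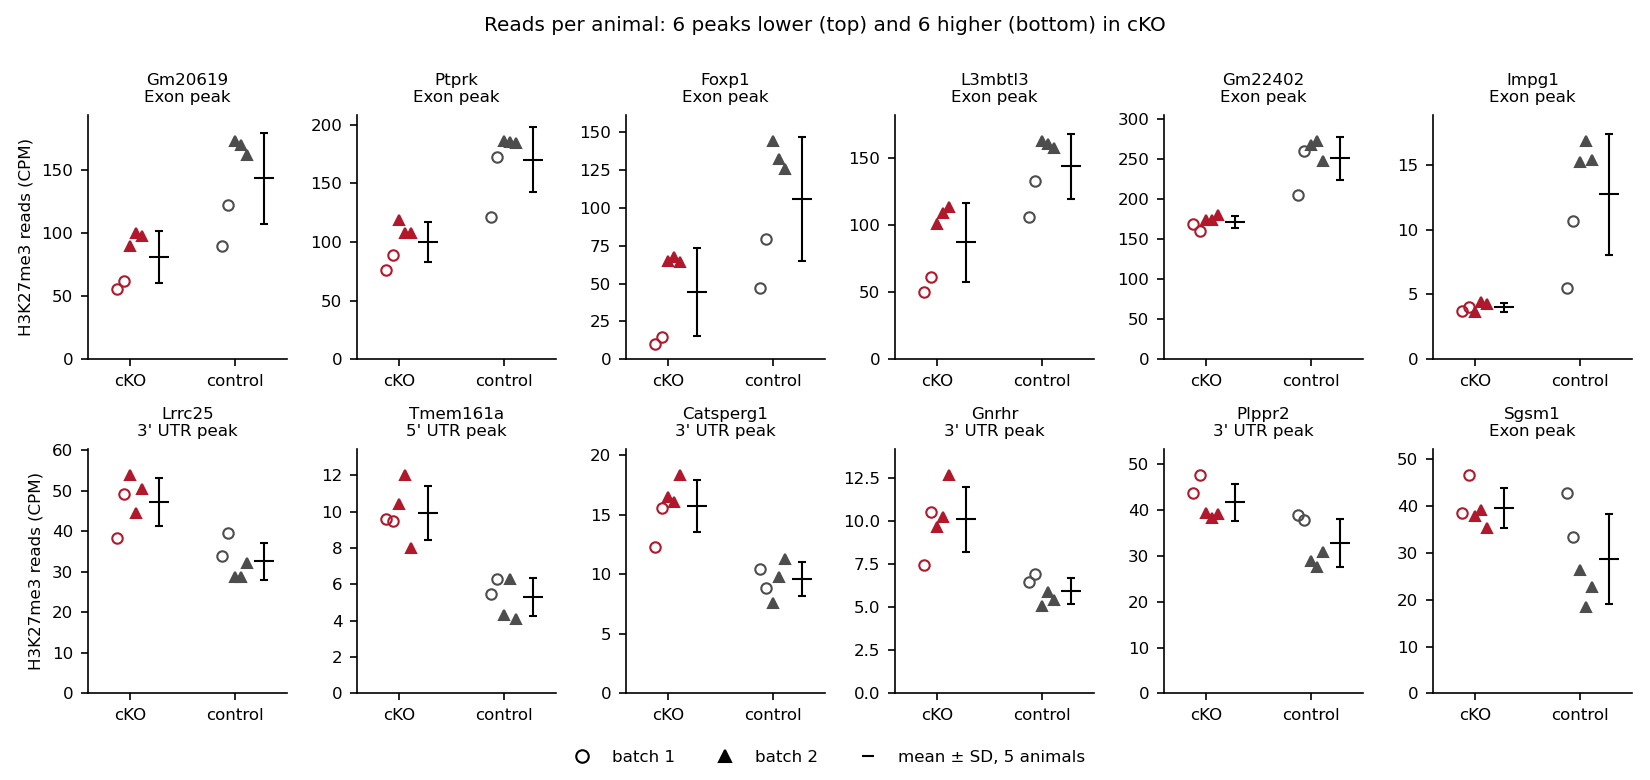
H3K27me3 reads in CPM (y axis, from 0) per animal in cKO (red, left) and control (grey, right) for the 6 lower (top) and 6 higher (bottom) exonic and UTR peaks with the smallest p, open circles for batch 1, triangles for batch 2, and bars for the mean ± SD of 5 animals. At Foxp1 the 2 batches differ in level, while at Ptprk and Impg1 all cKO animals lie below all controls and at Tmem161a, Catsperg1 and Gnrhr all cKO animals lie above them.

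Reln, which encodes the secreted protein reelin that guides the placement of neurons, had 3 tested exon peaks and all 3 fell. At exon 20 of 65 (chr5:22026040-22035620) the peak held 43.2, 38.6, 53.5, 49.9 and 56.4 CPM in cKO animals, against 47.8, 110, 110, 118 and 104 CPM in controls (log2 fold change -1.01 ± 0.14 SE, edgeR adjusted p = 4.8e-05). Only control replicate 1, the heterozygote with Cre, lay within the cKO range. At exons 35 and 38 the log2 fold changes were -0.93 ± 0.14 and -0.99 ± 0.21. The promoter peak of Reln fell by 0.73 on the log2 scale and 1 of its 2 tested intron peaks fell. Dab1 encodes the adaptor through which reelin receptors signal. A 5' UTR peak that overlaps Dab1 and is assigned to Gm12717 fell (-0.82 ± 0.14, edgeR adjusted p = 0.00063), while the promoter peak at the start of Dab1 did not pass (0.02 ± 0.06, adjusted p = 0.878).

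Axon guidance and adhesion genes gave the most lower peaks of the 13 gene lists looked at, with 6 lower and 0 higher of 23 tested and a median log2 fold change of -0.15, against 0.02 over all tested peaks. Of all tested peaks 7.38% were lower, of exon peaks 11.9% and of exon peaks in coding genes over 200 kb 32.6%, and some smaller lists below had larger shares. Unc5c and Dcc, which both encode netrin receptors, were among the 6 lower peaks of the list. Unc5c fell by 0.65 on the log2 scale (57.7 ± 15.0 CPM in cKO and 90.5 ± 21.9 CPM in controls, SD, n = 5 each). Dcc held 434 ± 52.3 CPM in cKO and 541 ± 33.8 CPM in controls, a log2 fold change of -0.32 ± 0.06. Sema3a, a secreted repellent of axons, had 2 lower exon peaks. The one at exon 14 of 18 (chr5:13575160-13587410) held 92.7, 89.7, 78.0, 82.4 and 79.5 CPM in cKO animals, against 112, 158, 109, 106 and 104 CPM in controls, with no overlap (log2 fold change -0.47 ± 0.08 SE, edgeR adjusted p = 0.00056). The cadherin gene Cdh12 (-0.84 ± 0.15) and the contactin gene Cntn3 (-0.43 ± 0.11) also fell. The other 17 tested peaks of the list did not pass, and 12 of these had a negative log2 fold change.

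The other lists held few calls. Ion channels and transmitter receptors had 3 lower and 2 higher of 29 tested peaks (median log2 fold change -0.06). The lower ones were Cacna2d1 and Kcnma1 at exons and a 3' UTR peak that overlaps Kcnq1, and the higher ones included a 3' UTR peak that overlaps Adra1d, an adrenergic receptor gene (0.26 ± 0.08). Cacna2d1 encodes an auxiliary subunit of calcium channels, and its exon 4 peak held 22.4, 18.04, 32.6, 37.0 and 35.3 CPM in cKO animals, against 37.8, 60.4, 68.4, 51.0 and 61.6 CPM in controls (log2 fold change -0.93 ± 0.13 SE, edgeR adjusted p = 5.6e-05). All cKO values lay below all control values. Kcnma1, which encodes the large-conductance potassium channel, fell by 0.48 on the log2 scale.

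Among transcription factors, homeobox genes had 1 lower of 6 tested and the forkhead, Sox, T-box and Gata list 2 lower of 5 (Foxp1 and Sox5), with 0 higher in both. The lower homeobox peak was the Pax3 peak (-0.30 ± 0.07, edgeR adjusted p = 0.0102, and 0.0544 with loess offsets). Foxp1 and Sox5 were also the only tested members of the list of retinal progenitor and temporal genes. The Sox5 peak (-0.51 ± 0.13, edgeR adjusted p = 0.0109) had an adjusted p of 0.0518 without control replicate 4. Regulators of retinal neurons had 0 calls of 4 tested by edgeR (2 at an unadjusted p under 0.05), with Ebf3 at -0.29 ± 0.14 (adjusted p = 0.218). Zinc-finger genes of the Zfp and Zbtb type had 0 calls of 9 (1 at an unadjusted p under 0.05). The 3' UTR peak of Zbtb4 was just outside the threshold at 0.57 ± 0.18 (adjusted p = 0.0553). Signalling ligands and receptors had 0 of 14 (2 at an unadjusted p under 0.05), with a median log2 fold change of 0.11. Their smallest p were at the Tgfb1 3' UTR (0.42 ± 0.14, adjusted p = 0.0732) and at an exon of Jag1 (-0.57 ± 0.21, adjusted p = 0.107). Extracellular matrix genes had 1 lower (Adamts9, a protease, -0.33 ± 0.10) and 1 higher (Mmp25, a membrane metalloprotease, 0.57 ± 0.17) of 14, and these passed in 3 and 2 of the 10 fits that left out an animal. The bHLH and Zic list and the Polycomb and chromatin list had 1 tested peak each and 0 calls, the list of pigment, vessel, blood and lens genes had 1 peak that was not tested, and the clustered protocadherins had no peak in the set.

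The UTR peaks that fell were few. In 5' UTRs these were Zpld1, Stk32a, Phactr3 and the peak in Dab1. Zpld1, a gene for a zona pellucida domain protein, held 17.6, 18.5, 23.7, 28.5 and 22.6 CPM in cKO animals, against 28.9, 34.0, 34.7, 39.2 and 38.9 CPM in controls, with no overlap. Stk32a encodes a serine/threonine kinase, and its peak lies 0.1 kb from a promoter peak (-0.78 ± 0.14, edgeR adjusted p = 0.00056). Phactr3, a gene for a phosphatase and actin regulator, fell least of the 4 (-0.36 ± 0.08).

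In 3' UTRs the 6 lower peaks were those of the cannabinoid receptor gene Cnr1 (-0.66 ± 0.13), the carbohydrate kinase gene Fggy (-0.55 ± 0.13) and Cd93, a receptor gene of endothelial and blood cells (-0.55 ± 0.17), and peaks that overlap Arhgap15 (-0.61 ± 0.10), the transcription factor gene Rfx4 (-0.46 ± 0.10) and the potassium channel gene Kcnq1 (-0.44 ± 0.11) but are assigned to other genes. Cnr1 held 14.4, 16.0, 25.7, 29.9 and 30.6 CPM in cKO animals, against 24.9, 40.3, 42.0, 42.4 and 36.7 CPM in controls. The Cnr1 groups overlapped through control replicate 1 alone. Arhgap15, the gene of a Rac-inactivating protein, also had a lower exon 2 peak (-0.32 ± 0.07) around the starts printed above. Cd93 was just inside the threshold (adjusted p = 0.0477, edgeR).

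Transcripts outside coding genes took part. Exon peaks on non-coding genes had 21 lower and 1 higher of 144 tested (14.6% lower), and those on coding genes 41 lower and 3 higher of 367 (11.2% lower). Sox2ot (-0.41 ± 0.09) and Sox1ot (-0.36 ± 0.06), long non-coding transcripts that overlap the neural progenitor genes Sox2 and Sox1, were among the lower ones. The 2 lower peaks of D130079A08Rik lay 164 and 169 kb from its start, where its promoter peak held 1086 CPM in cKO and 1138 CPM in controls (-0.06 ± 0.07, adjusted p = 0.643).

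The 18 higher peaks were smaller changes, and 8 of them lay in 3' UTRs. Lrrc25, which encodes a membrane protein with leucine-rich repeats, had the smallest p. Its 3' UTR peak (chr8:70620550-70623850) held 38.4, 49.1, 53.9, 44.5 and 50.3 CPM in cKO animals, against 33.8, 39.6, 28.6, 28.6 and 32.1 CPM in controls (log2 fold change 0.56 ± 0.11 SE, edgeR adjusted p = 0.00166). The groups overlapped in 1 value each. Most of this peak lies outside the RefSeq gene of Lrrc25 (chr8:70616844-70620850). The largest rise was at a peak annotated as 5' UTR and assigned to Tmem161a, although it overlaps the coding genes Gm45929 and Mef2b and not Tmem161a (chr8:70163460-70165980). It held 9.59, 9.52, 10.4, 12.0 and 7.99 CPM in cKO animals, against 5.48, 6.29, 4.34, 6.28 and 4.08 CPM in controls, without overlap (0.92 ± 0.20, edgeR adjusted p = 0.00308). Catsperg1, a subunit gene of the sperm calcium channel, rose at its 3' UTR to 15.7 ± 2.21 CPM in cKO, against 9.60 ± 1.45 CPM in controls (SD, n = 5 each). Gnrhr, the gene of the receptor for gonadotropin-releasing hormone, had 10.1 ± 1.88 CPM in cKO and 5.96 ± 0.75 CPM in controls at a 3' UTR peak that overlaps it and is assigned to Uba6.

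The higher calls depended on single animals more than the lower ones. Against 18 with all animals, leaving out cKO replicate 1, 4 or 5 gave 10, 9 and 9 higher peaks, and leaving out control replicate 2, 3 or 4 gave 9, 11 and 10. Of the named higher peaks, Lrrc25, Tmem161a, Catsperg1 and Plppr2, a phospholipid phosphatase-related gene, passed in all 10 such fits. Gnrhr passed in 9, Sgsm1, a gene for a modulator of small G proteins, in 8, and Mpp4, a scaffold gene of photoreceptors, in 7. Atp1a4, a sodium pump subunit gene, passed in 5. The peak assigned to Capn10, a calpain gene that it does not overlap in RefSeq, passed in 3. None of the 18 was 2-fold or more, and 6 of the 80 lower peaks were.

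The genes of the lower peaks often held further lower peaks. Of these 74 genes, 56 were found in RefSeq, with a median length of 271 kb, and 30 of the 56 had over 1 lower peak of any class. A promoter peak was tested in 45 and lower in 18 of these. Their bodies held 94 tested intron peaks, of which 33 were lower, and 64 tested promoter peaks, of which 23 were lower, where 15.6% of all autosomal intron peaks and 4.26% of promoter peaks were lower. No tested peak in them was higher. These genes were picked for holding a lower peak, so their counts are a description. Of the 232 tested peaks in these genes 1 was higher at an unadjusted p under 0.05 (edgeR). In Foxp1 7 of 8 tested peaks fell, and in Sox5 8 of 18. Of the 16 genes of higher peaks found in RefSeq, with a median length of 38.7 kb, 7 had a tested promoter peak and 1 of these was higher.

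**Figure D4:**
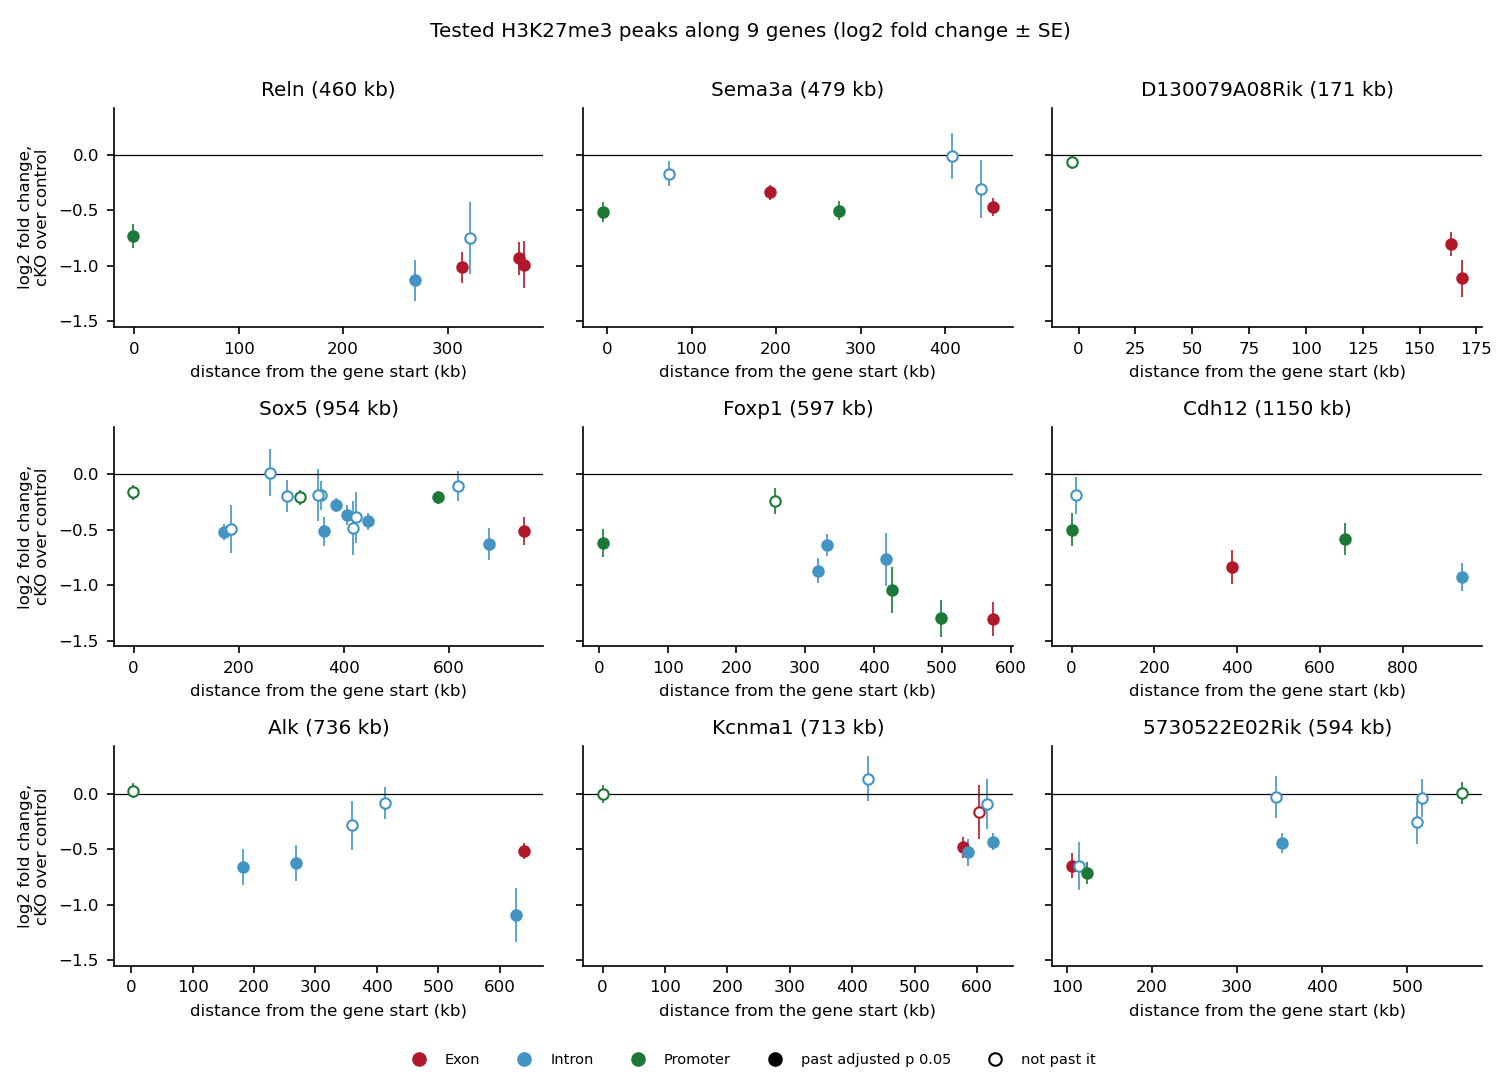
Log2 fold change ± SE of every tested peak (y axis) by its distance from the start of the RefSeq gene (x axis, kb) in 9 genes with a lower exon peak and a tested promoter peak, coloured by annotation, filled where past an adjusted p of 0.05. Promoter peaks include those at further starts within a gene. In Alk and D130079A08Rik the promoter peak at the start lies near 0 and the exon peaks far from it are lower, while in Reln and Foxp1 the promoter peak at the start is lower too.

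Whether the exonic part of a gene fell more than its promoter was tested on the ratio of the 2 within each animal, which needs no scaling between animals. Of 327 genes with both parts, the exonic or UTR part was lower relative to the promoter part in 7 genes (2.14%) and higher in 1 (0.306%; limma on log2 ratios with batch as a term, adjusted p under 0.05 over the 327 genes). The median log2 change of the ratio over the 327 genes was near 0 (-0.0016), with 165 negative. At an unadjusted p under 0.05 the ratio was lower in 32 genes and higher in 19. At Alk the exonic part held 56.5, 58.6, 96.5, 98.4 and 90.8 CPM in cKO animals and 86.1, 95.0, 136, 131 and 123 CPM in controls. The promoter part of Alk held 92.2, 101, 95.7, 89.5 and 99.2 CPM in cKO animals and 96.6, 94.4, 99.9, 87.5 and 91.0 CPM in controls. The promoter values of the groups overlapped, and the ratio changed by -0.55 ± 0.09 (SE, limma adjusted p = 0.0121).

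The ratio also fell at Cacna2d1 (-0.87 ± 0.16), at Vav3, a gene for a guanine nucleotide exchange factor (-0.86 ± 0.17), at Foxp1 (-0.86 ± 0.16), and at Prkg2, the gene of a cGMP-dependent kinase (-0.73 ± 0.12). The other 2 were Agap1, a regulator gene of Arf proteins (-0.80 ± 0.16), and Dnah11, an axonemal dynein gene (-0.42 ± 0.09). The promoter part of Agap1 was low, at 6.47 to 10.2 CPM. Of the 4 promoter peaks tested in Foxp1, 3 were lower themselves. The ratio rose at Slc25a21, a mitochondrial carrier gene (0.44 ± 0.10, limma adjusted p = 0.0434). There the promoter part was lower in all 5 cKO animals (52.2 to 57.1 CPM) than in all 5 controls (63.2 to 75.6 CPM), while the exonic parts overlapped (39.0 to 52.1 CPM in cKO and 36.9 to 51.0 CPM in controls). The promoter peak of Slc25a21 was itself called lower (edgeR adjusted p = 0.00453). With 1 animal left out, Alk, Cacna2d1, Foxp1 and Prkg2 passed in all 10 fits, Vav3 in 9, Agap1 in 6, Dnah11 in 3 and Slc25a21 in 2. Without control replicate 3 the number of genes with a lower ratio was 4.

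**Figure D5:**
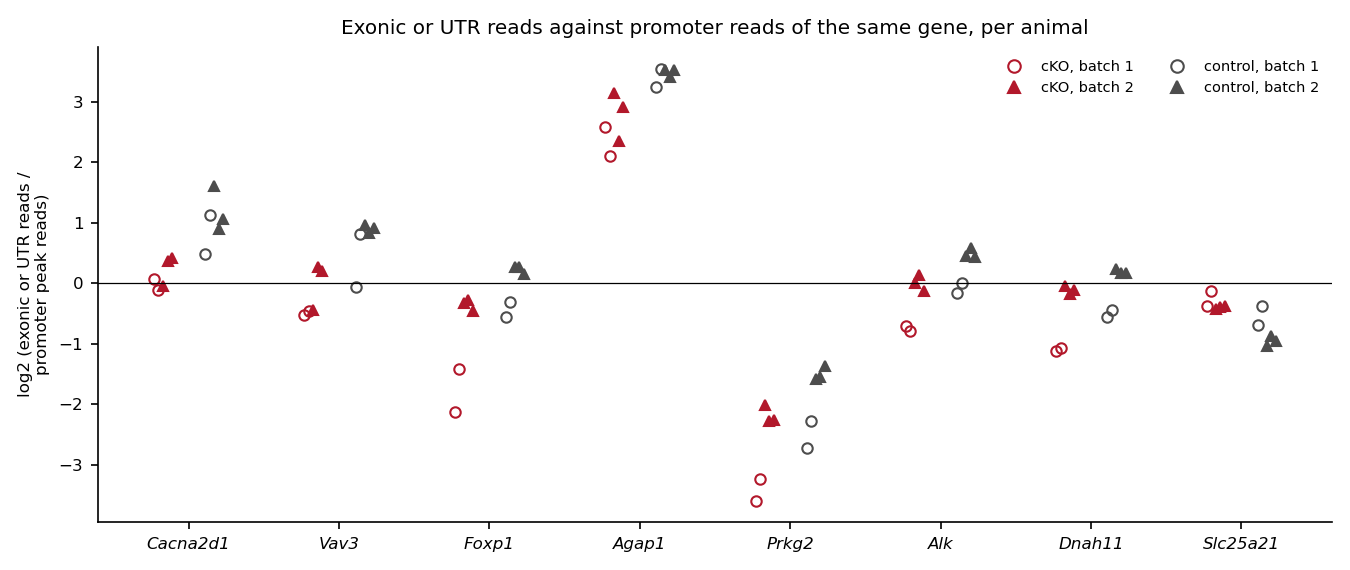
Log2 of exonic or UTR reads over promoter peak reads (y axis) per animal for the 8 genes past the threshold (x axis), cKO in red left of control in grey, open circles for batch 1 and triangles for batch 2. Within each batch the cKO ratios lie below the control ratios at the 7 genes on the left, and at Slc25a21 they lie above them in batch 2, while in batch 1 the groups meet.

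The most covered peaks of the set changed little. The exon peak of Gm29418 held 712 ± 39.0 CPM in cKO and 754 ± 91.0 CPM in controls (SD, n = 5 each; edgeR adjusted p = 0.564). The 3' UTR peak of Meis2, a homeobox gene, held 495, 498, 480, 464 and 422 CPM in cKO animals, against 555, 580, 554, 542 and 443 CPM in controls, with a log2 fold change of -0.18 ± 0.07 and an adjusted p of 0.112. Gm29683 had -0.11 ± 0.07 (adjusted p = 0.348) and Sptbn4, a spectrin gene, -0.04 ± 0.07 (adjusted p = 0.759). With all animals Gm39132 alone of the 5 most covered peaks passed, at -0.21 ± 0.06 (adjusted p = 0.0315), and it passed in 3 of the 10 fits that left out an animal. Meis2 and Gm29683 passed in 1 such fit each, that without control replicate 5 (edgeR adjusted p = 0.00271 and 0.0364). The widest peak, 42691 bp in Cpne4, had -0.06 ± 0.06 (adjusted p = 0.615), and Celrr, also among the 3 widest, -0.04 ± 0.06 (adjusted p = 0.768).

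The peaks called in batch 2 alone can also be described in the 4 animals of batch 1, which played no part in calling them. All these peaks share the same 4 libraries, so the counts for batch 1 are a description and no test. Batch 1 alone called 0 peaks of the set lower and 0 higher. In batch 2 alone, 71 peaks of the set were lower and 12 higher in cKO, against 5.92% lower and 1.04% higher of all 16276 peaks tested there. In the 4 animals of batch 1, the cKO mean was lower at 69 of these 71 peaks, with a median log2 difference of -0.60, and both cKO animals lay below both controls at 61 of them (85.9%). Over all tested peaks the cKO mean of batch 1 was lower at 48.7%, and both cKO animals lay below both controls at 4075 of 16307. Of the 12 higher peaks of batch 2, the cKO mean of batch 1 was higher at 9, with a median of 0.20, and both cKO animals lay above both controls at 5.

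Control replicate 1, the heterozygous control with Cre, stood between the groups at these peaks. At the 71 peaks lower in batch 2 alone, it lay below control replicate 2, the Cre-free heterozygote of its litter, at 69, and it lay between both cKO animals of batch 1 and control replicate 2 at 60. Its median log2 difference from control replicate 2 was -0.44 there, and its median difference from the batch 1 cKO mean was 0.37. Over the 809 uncalled tested peaks of the set it lay below control replicate 2 at 44.5%, with a median log2 difference of 0.04, and over all tested peaks at 49.8%. At the 12 peaks higher in batch 2 alone it lay below at 3. Each genotype of batch 1 controls is 1 animal, control replicate 1 is male and control replicate 2 female, so genotype, sex and animal cannot be told apart here. The libraries of the 2 animals also differed as a whole. Of the reads in peaks, promoter peaks took 77.9% and 79.1% in cKO replicates 1 and 2, 79.0% in control replicate 1 and 76.1% in control replicate 2, and intron peaks took 3.97% and 3.95% in the cKO animals, 4.13% in control replicate 1 and 4.78% in control replicate 2. Among batch 2 animals, intron peaks took 4.52% to 4.81% of these reads in cKO and 4.95% to 5.57% in controls. Exon peaks took 2.232% to 2.325% in cKO and 2.353% to 2.528% in controls. Promoter peaks took 76.4% to 77.5% in cKO and 74.2% to 76.6% in controls. The part of such shifts in the intermediate position, and in the calls between the groups, was not tested. Between the female and the male cKO animal of batch 1 the median log2 difference at the 71 peaks was -0.05. Leaving out control replicate 1 gave 84 lower and 18 higher peaks of the set.

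The size of the change differed between batches at 1 peak of the set by the interaction test, against 2 of all 16307 tested peaks (0.0123%). It was the 3' UTR peak of Parn, the gene of a poly(A)-specific ribonuclease (chr16:13605300-13612170). It held 11.2, 15.5, 53.9, 58.8 and 48.9 CPM in cKO animals, against 41.8, 40.3, 59.4, 67.5 and 53.0 CPM in controls. Both batch 1 cKO animals were far below their controls, and in batch 2 the groups overlapped. The log2 fold change was -1.61 in batch 1 and -0.17 in batch 2 (edgeR interaction adjusted p = 0.0420), and over both batches -0.51 ± 0.17 (adjusted p = 0.0603). With DESeq2 0 peaks of the set passed this test, with 14 at an unadjusted p under 0.05, against 39 with edgeR. No peak of the set passed it when cKO replicate 1, 3 or 4 or control replicate 3, 4 or 5 was left out.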

How the data were processed

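The authors deposited whole-number read counts over 19034 peaks, for 16 H3K27me3 libraries of 10 animals (0 sample columns unused). The 6 IgG libraries are not analysed here. The submitters' processing notes list MACS2, SAMtools, DESeq2 1.38.1, Novoalign 4.02.02 and the mm10 build, without their roles. The sources used here do not give the libraries on which peaks were called. Peak width and distance to the nearest start were used as deposited by the authors.

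The counts of technical duplicates agreed within counting noise (chi-square 0.881 to 0.997 per degree of freedom) and were summed. Low peaks were dropped by filterByExpr, TMM factors were computed, and edgeR 4.0.16 (R 4.3.3) quasi-likelihood tests were fitted over all peaks with batch as a term. The SE is the log2 fold change over the square root of F. Ratios used limma 3.58.1, a prior count of 2 and at least 10 reads on average in each part. DESeq2 1.42.0 was an alternative. The steps were tested on simulated data. Peaks of the set held a median of 31.7 reads per animal, which limits precision at small peaks.

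The set, the 13 gene lists and the rule for named peaks were chosen with earlier results of these data known. Named were tested peaks of Foxp1 and Jarid2, the peaks with the smallest p, 10 lower and 10 higher (1 per gene, same sign in both batches), the 5 most covered and 3 widest peaks, up to 2 peaks per list with at least 3 tested, those past the interaction test, and 5 genes of the ratio test. One of the 10 higher peaks is not reported here. Other peaks were named after their values were seen, among them the UTR and non-coding peaks, Reln, Dab1, Unc5c, Dcc, Cntn3, Agap1, Dnah11 and Slc25a21. Sequences are from RefSeq (GRCm38.p6). No genome came with the files, so no sequence of the peaks was read.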

Additional observations from a re-analysis of the deposited data

Results flagged for a closer look

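Of 82 groups of 5 animals at the named peaks, 4 held an animal far from the others, and chance alone gives about 1 in 20 such groups. At the Ptprk exon peak control replicate 1 was low, at 121.5 CPM, with the next control at 172.4 CPM. At the 3' UTR peak assigned to Capn10, which it does not overlap in RefSeq, control replicate 4 was low, at 43.1 CPM, with the next at 49.4 CPM. At the Meis2 3' UTR peak control replicate 5 was low, at 443.3 CPM, with the next at 542.1 CPM. At the Sema3a exon 14 peak control replicate 2 was high, at 157.9 CPM, with the next at 112 CPM. The fold changes of Ptprk and Sema3a kept their call whichever animal was left out, and that of Capn10 kept it in 3 of 10 fits. The Meis2 peak was not called with all animals (edgeR adjusted p = 0.112). It was called lower in 1 of the 10 fits, the one without control replicate 5 (edgeR adjusted p = 0.00271).

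The Parn 3' UTR peak differed between batches in its change, by 1.45 on the log2 scale (batch 2 minus batch 1, edgeR interaction adjusted p = 0.042). Both batches held samples of both groups, and batch 1 held both sexes.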

How the results depend on the processing

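With all animals and settings as reported, 80 peaks of the set were lower and 18 higher. Leaving out 1 animal gave 69 to 89 lower and 9 to 18 higher. Without a batch term 27 were lower and 4 higher, and in batch 1 alone 0 and 0, with 122 at an unadjusted p under 0.05. Higher peaks numbered 9 with the first and 8 with the second technical duplicate alone, 3 with DESeq2 and 4 at an adjusted p under 0.01. Deviations of same-numbered animals of the 2 groups from their batch means had r from -0.444 to 0.0943. With 2 animals per group in batch 1, same-numbered and crossed pairs can only have opposite r there (-0.444 and 0.444). In batch 2 r was 0.0141 to 0.0943 for same-numbered and -0.0664 to 0.0263 for other pairs. The check therefore cannot show whether the numbers mark pairs. With the replicate block in place of batch 81 were lower and 20 higher. The batch by genotype difference was called at 1 peak, at 0 with DESeq2, and at 0 to 2 without single animals. The ratio test called 7 lower genes and 1 higher. It called 0 and 0 without a batch term (38 at an unadjusted p under 0.05), in batch 1 alone (30) and in batch 2 alone (31), 4 to 10 lower and 0 to 1 higher without single animals, and 8 lower and 0 higher with the replicate block. Reversals of sign occurred only at peaks that were not called: with loess offsets at Gm29418 (0.015), Sptbn4 (0.047), Cpne4 (0.025) and Celrr (0.048), with the total count at Sptbn4 (0.0024) and Celrr (0.0067), and in batch 2 alone at Zfp579 (-0.036). Why these results moved was not tested, beyond the smaller number of animals or reads in some. Settings chosen after seeing the data were loess offsets and the peaks over 5 kb from a promoter peak, of which 71 were lower and 13 higher. Keeping only peaks above a minimum exonic share was not run, as it needs an exon annotation.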

Other observations

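Sycp2, a gene for a protein of meiotic chromosome axes, held 6 tested exon and UTR peaks, of which 1 exon peak was higher in cKO (27.3 CPM in cKO and 20.6 CPM in controls, log2 fold change 0.39 ± 0.11, edgeR adjusted p = 0.0341). The other 5 did not pass the test. Sycp2 was singled out after its values were seen.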
